A study of Mus musculus with 25 samples.

Results

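The genes described here encode the proteins of the mitochondrial ribosome. They were taken as every row of the normalized-count table whose mouse symbol begins with Mrpl or Mrps followed by a digit, without symbols marked as pseudogenes, which gave 77 of 48795 genes. RefSeq lists 78 such symbols, of which 1 (Mrpl33) was not analysed here and 2 (Mrpl57 and Mrpl58) were matched through an older symbol. All 77 had a mean of at least 100 normalized counts over the 25 libraries and all 77 entered the tests.

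The cells were sorted Thy1.2+CD44- thymocytes, labelled DN3 and DN4, from mice aged 7 to 8 weeks. KO mice were Wnk1fl/fl/CD2Cre/Rag1KO and lose both copies of Wnk1, a kinase of ion transport and cell migration, in lymphoid cells, where CD2Cre acts. HET mice were Wnk1fl/+/CD2Cre/Rag1KO and keep 1 intact allele, so HET stands for reduced and not for normal Wnk1. Both genotypes are Rag1KO, in which thymocytes cannot make a pre-TCR and stop at the DN3 stage, and other cells of the thymus keep Wnk1. Mice were either not injected (0 hr) or received 150 µg of anti-CD3ε intraperitoneally, which stands in for the pre-TCR signal, 3, 24 or 48 hr before harvest. Each group held 3 libraries from 3 mice, except KO at 0 hr with 4, and all came from one experiment.

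The 2 subunits of the mitochondrial ribosome are built in the organelle from RNAs of the mitochondrial genome and from proteins that are all encoded in the nucleus and imported. Part of the proteins have counterparts in bacterial ribosomes and part are found only in mitochondria. The ribosome translates the mRNAs of the mitochondrial genome, which encode core subunits of the respiratory chain and of ATP synthase, and in mature T cells activation through the TCR is known to be followed by growth of the mitochondria. By role, 29 of the 77 genes encode large-subunit proteins with a bacterial counterpart, 21 large-subunit proteins specific to mitochondria, 16 small-subunit proteins with a bacterial counterpart and 10 small-subunit proteins specific to mitochondria. The remaining gene, Mrps36, carries the name although its product is known mainly as a part of the oxoglutarate dehydrogenase complex.

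Depth ran from 22.5 M to 57.3 M reads per library. Wnk1 had 3037 to 3967 normalized counts in KO libraries at 0 hr, against 5407 to 7356 in HET libraries, and the genotypes did not overlap at 3, 24 or 48 hr either. Of the thymocyte markers, Cd3e had at least 15405 normalized counts in all libraries. At 0 hr Ptcra had 3902 to 5164 normalized counts in KO libraries, against 17024 to 18678 in HET libraries. Cd3e had 16933 to 19595, against 30170 to 35540, and Lck 41080 to 53417, against 71882 to 94937. Il2ra and Notch1 were also lower in all KO libraries at 0 hr, while Thy1 and Bcl11b overlapped between genotypes. At 24 hr Thy1 was lower in KO libraries (10980 to 17950) than in HET libraries (29875 to 44164; log2 change -1.40, adjusted p = 0.000299), Lck was lower too (log2 change -0.97, adjusted p = 0.000841), and Ptcra had only 3.06 to 5.93 normalized counts in KO libraries at 24 hr, against 59.2 to 2344 in HET libraries at 24 hr. Of the 4 NK and innate lymphoid markers, 3 were higher in KO thymocytes at 24 hr (Eomes 3.62, Klrk1 3.52 and Ncr1 3.17 on the log2 scale). The remaining marker, Klrb1c, also lay above in every KO library at 24 hr, with 121 to 271 normalized counts, against 24.8 to 63.2 in HET libraries. Itgax of the dendritic list was higher too (2.65, limma adjusted p = 0.019). Flt3 and Siglech, of the same list, overlapped between genotypes at 24 hr, at up to 18.3 and 1.84 normalized counts. The 4 B cell markers summed to at most 43.5 normalized counts in any library. The 4 myeloid markers summed to 495 to 1059 in KO and 1836 to 2349 in HET libraries at 0 hr and to 160 to 351 in KO and 167 to 270 in HET libraries at 48 hr, and the 4 markers of epithelium and stroma, mostly Epcam, to 2679 to 3187 in KO and 3238 to 3497 in HET libraries at 0 hr and to 961 to 1535 in KO and 316 to 513 in HET libraries at 48 hr. The 4 markers of double-positive cells summed to at most 27282, in a HET library at 3 hr, and to at most 2278 outside HET at 3 hr. The part of these marker differences in the results below was not tested. By the sequencing lane in the sample names, all KO libraries at 0 hr were on lane 2 and all HET libraries at 0 hr on lane 1, so that lane and genotype cannot be told apart at 0 hr. By Xist and Y-linked transcripts, mice at 0 and 48 hr were female and mice at 3 and 24 hr male, so that sex and time cannot be told apart in the comparisons of 3 or 24 hr with 0 hr. Of the libraries, 3 stood apart from their groups over all genes: HET replicate 3 at 3 hr, HET replicate 3 at 24 hr and KO replicate 3 at 48 hr.

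Together the 77 genes took 0.216 to 0.407% of all normalized counts of a library. Per kilobase of the longest annotated coding transcript, their median level was 1037 normalized counts, with quartiles of 713 and 1422. The highest were Mrps21 (3376 per kilobase), Mrps16 (3315) and Mrpl52 (3028), and the lowest were Mrps25 (152.8), whose annotated transcript is long, and Mrpl23 (154.8), whose reads can be shared with a pseudogene. The annotated spans of 24 of the 77 genes overlap another gene, and counting used the strand.

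The median over the 77 genes of the log2 deviation from each gene's own mean gives 1 value per library. At 0 hr it was 0.09, 0.08, 0.17 and 0.06 in KO libraries, against 0.37, 0.28 and 0.10 in HET libraries. The HET libraries were scattered and the lowest of them lay inside the KO range. At 24 hr it was -0.03, -0.04 and -0.04 in KO libraries and 0.14, 0.20 and 0.26 in HET libraries, which did not overlap. At 24 hr the NK and innate lymphoid markers summed to 581, 408 and 236 in KO and 40.3, 89.8 and 38.5 in HET libraries. Itgax had 98.3 to 237 normalized counts in KO and 16.4 to 64.9 in HET libraries, while Flt3 and Siglech of the same dendritic list overlapped. Cd44, against which the cells were sorted, had 663 to 741 in KO and 127 to 354 in HET libraries. The part of cells with these markers in the difference at 24 hr was not tested. At 48 hr the values spread widely in both genotypes, with -0.49, -0.11 and -0.08 in KO libraries and -0.17, 0.09 and -0.42 in HET libraries. At 3 hr they were -0.25, -0.24 and 0.00 in KO libraries, against 0.11, -0.14 and -0.02 in HET libraries, which overlap. In these bulk libraries fewer cells of a type and less RNA per cell cannot be told apart.

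**Figure D1:**
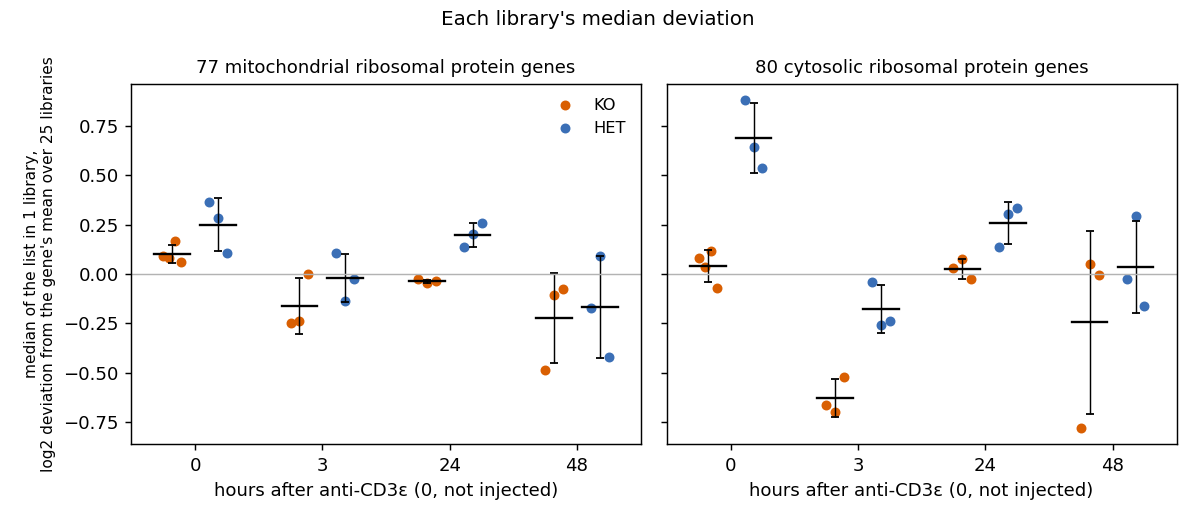
Median log2 deviation of the genes of a list from their own mean over the 25 libraries, 1 point per library, by hours after anti-CD3ε, with KO (orange) left of HET (blue); bars are group means and error bars SD. The left panel shows the 77 mitochondrial ribosomal protein genes, where KO and HET libraries are apart at 24 hr alone and scatter most at 48 hr, and the right panel the 80 tested cytosolic ribosomal protein genes, which spread more.

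The first question was whether the genes differ with the loss of WNK1 before any stimulus. At 0 hr, 11 of the 77 (14.3%) were lower and 0 were higher in KO thymocytes (limma, adjusted p under 0.05). Of all 14141 tested genes 11.1% were called lower and 22.1% in either direction. The share of the 77 called lower thus lay near the background, and their share in either direction below it. The median log2 change of the 77 was -0.21, against a median of 0.00 over all tested genes, and 63 of the 77 changes were negative. The 11 genes are Mrpl23, Mrpl24, Mrpl28, Mrpl37, Mrpl58 and Mrps18a of the large subunit, Mrps15, Mrps21, Mrps25 and Mrps35 of the small subunit, and Mrps36. With the lane as a covariate 3 of the 77 were called lower and the median was -0.57. In a fit of only these 7 libraries 18 were lower and 2 higher. The lane fit ties lane 2 to lane 1 only through HET libraries at 48 hr, replicates 1 and 2 against replicate 3. Their library medians were -0.17 and 0.09 against -0.42. Lane 1 is tied to lanes 3 and 4 only through KO libraries at 48 hr, replicates 1 and 2 against replicate 3. Lane-adjusted values here and below that compare these lanes rest on these few libraries. Leaving out 1 library gave 2 to 13 calls, with the fewest (2) without HET replicate 1, 5 without HET replicate 2 or KO replicate 1 and 7 without KO replicate 2 or KO replicate 4.

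Mrps21 encodes the counterpart of the bacterial small-subunit protein S21 and lies on chromosome 3 (95862634 to 95871514 of GRCm38). It had 1401, 1506, 1575 and 1377 normalized counts in KO thymocytes at 0 hr, against 2813, 2385 and 2111 in HET thymocytes. All KO libraries were below all HET libraries. The log2 change was -0.73 (SE 0.14, adjusted p = 0.00126), and it stayed past the threshold without any single library (-0.82 to -0.62) and under every other alternative run.

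Mrpl58, also known as Ict1, is a peptidyl-tRNA hydrolase built into the large subunit that can release stalled chains. It had 1762, 1946, 2272 and 1788 normalized counts in KO thymocytes, against 3441, 2926 and 2845 in HET thymocytes at 0 hr. The groups did not overlap, with a log2 change of -0.66 (SE 0.17, adjusted p = 0.00853), which lost its call with lane as a covariate and without HET replicate 1 (-0.58).

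Mrps25, a small-subunit protein specific to mitochondria, had 1078, 999, 1007 and 991 normalized counts in KO thymocytes and 1492, 1356 and 1324 in HET thymocytes at 0 hr. Here too every KO library was below every HET library (log2 change -0.45, SE 0.13, adjusted p = 0.0152). Mrps18a, which in spite of its name sits in the large subunit, had 1083, 1091, 1281 and 1078 normalized counts in KO thymocytes, against 1870, 1527 and 1418 in HET thymocytes (log2 change -0.50, SE 0.15, adjusted p = 0.0215). Its call ended without HET replicate 1 (-0.38), KO replicate 1 (-0.48) or KO replicate 4 (-0.47). Mrpl28, the counterpart of bacterial L28, had 1369, 1459, 1663 and 1428 normalized counts in KO thymocytes, against 2525, 2117 and 1847 in HET thymocytes (log2 change -0.54, SE 0.18, adjusted p = 0.0328). That difference passed the threshold only narrowly and was lost without HET replicate 1 (-0.42), HET replicate 2 (-0.55), KO replicate 1 (-0.50), KO replicate 2 (-0.53) or KO replicate 4 (-0.52).

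At 3 hr, 2 of the 77 were lower and 0 higher in KO thymocytes, against 3.43% of all tested genes lower and 9.18% in either direction, so the share of the 77 lay near the background. The median log2 change was -0.12. Mrps21 had 1020, 973 and 1270 normalized counts in KO thymocytes, against 1751, 1453 and 1455 in HET thymocytes, without overlap (log2 change -0.52, SE 0.15, adjusted p = 0.0379). Mrps25 had 714, 670 and 854 normalized counts in KO thymocytes, against 1155, 971 and 936 in HET thymocytes (log2 change -0.45, SE 0.14, adjusted p = 0.0386). Both calls were marginal. Leaving out HET replicate 1 or 2 or KO replicate 1 or 2 left 0 calls, leaving out HET replicate 3 left 1, and leaving out KO replicate 3 gave 3. Without them in turn Mrps21 was at -0.56 to -0.43 and Mrps25 at -0.49 to -0.36 where the call ended, and 0 of the 77 were called with no filter on low values, with equal totals or upper quartiles, with lane as a covariate or in a fit of only these 6 libraries.

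At 24 hr, 8 of the 77 were lower and 0 higher in KO thymocytes, while of all tested genes 5.45% were called lower and 12.5% in either direction. Complete separation of the groups is given for this time alone, at which the library medians do not overlap. It held for 36 of the 77 in the lower direction, against 16.9% of all tested genes. Because the genes vary together, this count largely restates the library medians and adds no separate support. The median log2 change was -0.20 and 64 of the 77 changes were negative. Each lane of this time held both genotypes. In lane 3 the library medians were -0.03 and -0.04 in KO libraries and 0.26 in the HET library, and in lane 4 they were -0.04 in the KO library and 0.14 and 0.20 in HET libraries. With 1 library left out 1 to 6 of the 77 were called: 1 without KO replicate 2, 2 without KO replicate 1 or KO replicate 3, 3 without HET replicate 3 and 5 without HET replicate 1.

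The 8 genes were Mrpl13, Mrpl18, Mrpl40, Mrpl41, Mrpl55 and Mrpl58 of the large subunit and Mrps15 and Mrps21 of the small subunit. Mrpl18, the counterpart of the bacterial protein that binds 5S rRNA, had 2256, 2288 and 2181 normalized counts in KO thymocytes, against 3822, 2939 and 3600 in HET thymocytes. The KO libraries agreed closely and lay well below the HET libraries (log2 change -0.61, SE 0.14, adjusted p = 0.00646), and this call held in every alternative run. Mrpl58 had 1948, 1899 and 1916 normalized counts in KO thymocytes, against 2772, 3438 and 2992 in HET thymocytes (log2 change -0.67, SE 0.18, adjusted p = 0.0204). Without HET replicate 2 or any one KO library the change stayed between -0.68 and -0.58 and missed the threshold.

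Mrpl41, a large-subunit protein specific to mitochondria, had 1056, 897 and 1111 normalized counts in KO thymocytes, against 1465, 1660 and 1719 in HET thymocytes at 24 hr (log2 change -0.66, SE 0.18, adjusted p = 0.0224). Its call ended without HET replicate 3 (-0.62), KO replicate 1 (-0.69) or KO replicate 2 (-0.57). Mrps21 again was below in every library, with 1600, 1516 and 1484 normalized counts in KO thymocytes and 2157, 2460 and 2155 in HET thymocytes (log2 change -0.56, SE 0.15, adjusted p = 0.0219). Its call ended without KO replicate 2, where Mrpl18 alone kept its call. Mrpl13 (log2 change -0.58, adjusted p = 0.0322) and Mrpl55 (log2 change -0.57, adjusted p = 0.0443) were lower with less margin. The call of Mrpl13 ended without HET replicate 1, HET replicate 3 or any one KO library (-0.59 to -0.50), and that of Mrpl55 without any one of the 6 libraries (-0.63 to -0.49).

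At 48 hr, 1 of the 77 was lower and 0 higher in KO thymocytes, against 6.95% of all tested genes lower and 13.1% in either direction. The median log2 change was -0.04, which turned to 0.04 with equal totals and to 0.13 with lane as a covariate, so no direction is given for the genes as a whole. The 1 gene was Mrpl52, a large-subunit protein specific to mitochondria on chromosome 14 (54426909 to 54429750). It had 721, 1294 and 1017 normalized counts in KO thymocytes, against 1482, 2189 and 1436 in HET thymocytes. The groups did not overlap (log2 change -0.76, SE 0.23, adjusted p = 0.0296; 0 to 3 of the 77 were called with 1 library left out), although the call ended without HET replicate 2 (-0.57), KO replicate 1 (-0.54) or KO replicate 3 (-0.79). Mrps21 was at -0.45 (95% confidence interval -0.77 to -0.13, adjusted p = 0.0581) with overlapping libraries.

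Over the 4 times, 13 of the 77 were called lower in KO thymocytes at 1 time, 3 at 2 times (Mrpl58, Mrps15 and Mrps25) and 1 at 3 times (Mrps21), and 60 at no time. In the main fit none of the 77 was called higher in KO thymocytes at any time. This did not hold in every alternative. DESeq2 called 1 higher at 0 hr and 1 at 48 hr. With lane as a covariate 1 was higher at 48 hr. When the libraries of other times were left out, 2 were higher at 0 hr. With edgeR, the replicate block or the other scalings none was called higher. Mrpl1 had the largest positive change of the main fit at 48 hr, with 846, 883 and 1044 normalized counts in KO thymocytes, against 789, 518 and 526 in HET thymocytes. It did not pass the threshold in that fit (log2 change 0.62, limma adjusted p = 0.0711).

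**Figure D2:**
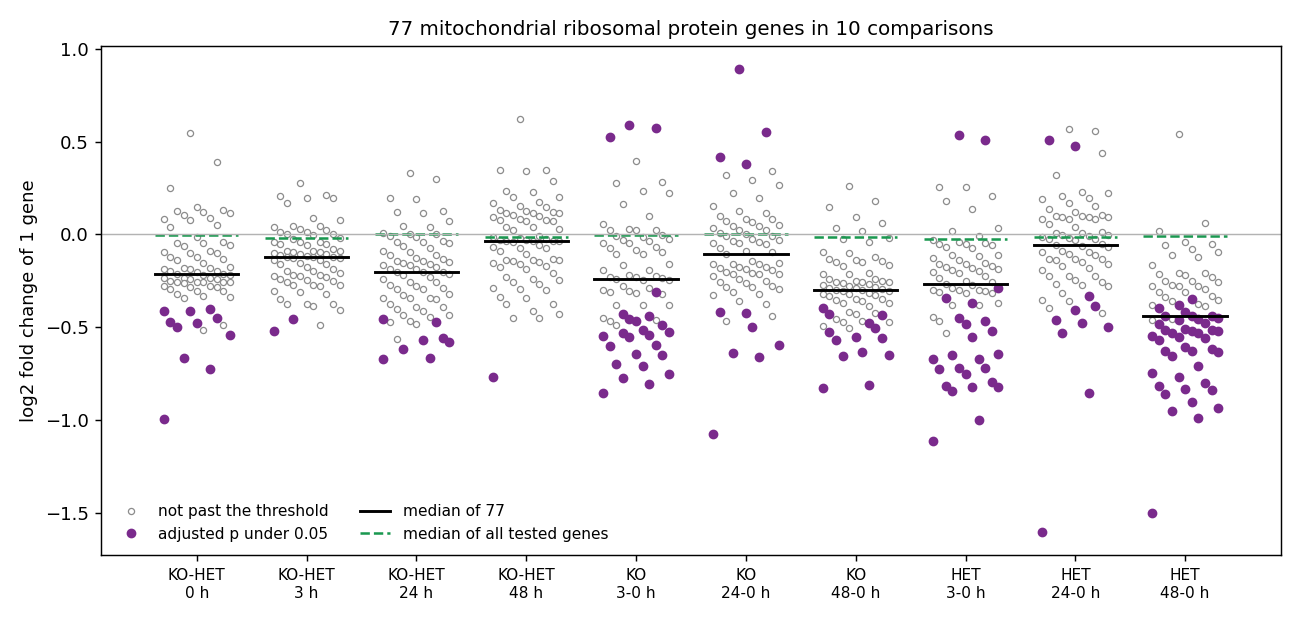
Log2 fold change of each of the 77 genes (y axis) in 10 comparisons (x axis): KO minus HET at each time, each time minus 0 hr in KO, and each time minus 0 hr in HET; filled points passed an adjusted p of 0.05. The black bar is the median of the 77 and the dashed green bar that of all tested genes. The filled points lie below 0 in all KO-HET comparisons, and HET at 48 hr has the most, 42 of 77. The KO-HET median at 48 hr turns positive with equal totals or with lane as a covariate.

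The second question was how the genes responded to anti-CD3ε in each genotype. At 3 hr in KO thymocytes, 22 of the 77 were lower and 3 higher than at 0 hr, against 11.3% of all tested genes lower and 24.7% in either direction, with a median log2 change of -0.24. In HET thymocytes, 23 were lower and 2 higher, against 18.5% lower and 37.0% in either direction, with a median of -0.27. The KO and HET lists share 17 genes called lower, which is 17 of 22 and 17 of 23. The lanes and the sex of the mice differ between 3 and 0 hr, and the comparisons of a genotype at 3, 24 and 48 hr share its libraries at 0 hr. With lane as a covariate the medians were -0.076 in KO and -0.53 in HET thymocytes and 0 of the 77 were called in KO thymocytes, and without KO replicate 2 at 3 hr 14 were called.

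Mrps33, a small-subunit protein specific to mitochondria, had 1226, 1117 and 1281 normalized counts at 3 hr in KO thymocytes, against 2176, 2001, 2189 and 1902 at 0 hr. In HET thymocytes it had 1390, 1017 and 1183 at 3 hr, against 2394, 2023 and 2002 at 0 hr. In both genotypes the times were far apart, with a log2 change of -0.77 in KO (SE 0.15, adjusted p = 0.00114) and -0.84 in HET thymocytes (SE 0.16, adjusted p = 0.000508). Mrps14, the counterpart of bacterial S14, fell in the same way, with log2 changes of -0.75 in KO (adjusted p = 0.00353) and -0.82 in HET thymocytes (adjusted p = 0.00165). Mrpl45 is related to the import protein Tim44 and ties the exit of the ribosome to the inner membrane. It had 1142, 1122 and 1131 normalized counts at 3 hr in KO thymocytes, against 1876, 1951, 1799 and 1765 at 0 hr, and 1162, 960 and 1183 at 3 hr in HET thymocytes, against 1744, 1716 and 1701 at 0 hr. Its replicates were among the tightest of the set, and the log2 changes were -0.71 in KO (SE 0.12, adjusted p = 0.000261) and -0.65 in HET thymocytes (SE 0.13, adjusted p = 0.000553).

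Mrpl14, the counterpart of bacterial L14, showed the largest fall at 3 hr in HET thymocytes. It had 679, 558 and 734 normalized counts at 3 hr in HET thymocytes, against 1755, 1421 and 1123 at 0 hr (log2 change -1.11, SE 0.23, adjusted p = 0.000978). Mrps16, the counterpart of bacterial S16, had 1426, 1095 and 1399 at 3 hr in HET thymocytes, against 3016, 2516 and 2307 at 0 hr (log2 change -1.0, SE 0.18, adjusted p = 0.00027). In KO thymocytes the largest falls were those of Mrps18c, the counterpart of bacterial S18, at -0.85 (SE 0.20, adjusted p = 0.00399), and Mrpl35, the counterpart of bacterial L35, at -0.80 (SE 0.16, adjusted p = 0.00104). Mrpl35 had 895, 876 and 889 normalized counts at 3 hr in KO thymocytes, against 1596, 1534, 1528 and 1534 at 0 hr, the narrowest groups among these genes. In KO thymocytes these falls lost their call with lane as a covariate.

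The genes called higher at 3 hr were 3 in KO and 2 in HET thymocytes, all of the small subunit. Mrps2, the counterpart of bacterial S2, had 1553, 1832 and 2189 normalized counts at 3 hr in KO thymocytes, against 1203, 1267, 1302 and 1182 at 0 hr. In HET thymocytes it had 2495, 2046 and 1926 at 3 hr, against 1507, 1436 and 1576 at 0 hr. All libraries at 3 hr were above all libraries at 0 hr, with log2 changes of 0.57 in KO (SE 0.12, adjusted p = 0.0015) and 0.51 in HET thymocytes (SE 0.13, adjusted p = 0.00346). Mrps18b, 1 of 3 mammalian relatives of bacterial S18, had 1572, 1971 and 2908 normalized counts at 3 hr in KO thymocytes, against 1201, 1383, 1602 and 1370 at 0 hr, with overlap. In HET thymocytes it had 2500, 2312 and 2035 at 3 hr, against 1781, 1613 and 1343 at 0 hr, without overlap. The log2 changes were 0.59 in KO (SE 0.18, adjusted p = 0.0214), lost without KO replicate 3 at 3 hr (0.35) or KO replicate 1 at 0 hr (0.52), and 0.54 in HET thymocytes (SE 0.19, adjusted p = 0.0345), lost without HET replicate 1 or 2 at 3 hr (0.47 and 0.52) or HET replicate 2 or 3 at 0 hr (0.56 and 0.42). Mrps5, the counterpart of bacterial S5 near the mRNA entry, had 2834, 3011 and 3695 normalized counts at 3 hr in KO thymocytes, against 1985, 2149, 2386 and 2287 at 0 hr (log2 change 0.52, SE 0.13, adjusted p = 0.00761), and its call ended without KO replicate 3 at 3 hr (0.41). With lane as a covariate none of the changes of Mrps2, Mrps18b and Mrps5 in this paragraph kept its call.

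At 24 hr in KO thymocytes, 7 of the 77 were lower and 4 higher than at 0 hr, against 14.3% of all tested genes lower and 30.4% in either direction. In HET thymocytes, 9 were lower and 2 higher, against 16.9% lower and 33.9% in either direction. The medians were -0.10 in KO and -0.06 in HET thymocytes (0.0022 in KO and -0.33 in HET with lane as a covariate, so no direction is given for KO), and in both genotypes a smaller share of the 77 than of all genes was called. Without HET replicate 1 at 24 hr 6 of the 77 were called in HET thymocytes, without any one of the 7 KO libraries 5 to 8 were called in KO thymocytes, and with lane as a covariate 1 was called in KO and 4 in HET thymocytes. Mrps34, a small-subunit protein specific to mitochondria, had 1265, 1076 and 1191 normalized counts at 24 hr in KO thymocytes, against 1588, 1808, 2202 and 1879 at 0 hr, and 990, 1258 and 1418 at 24 hr in HET thymocytes, against 2572, 2156 and 1888 at 0 hr. It was lower without overlap in both, by -0.66 in KO (SE 0.17, adjusted p = 0.00529) and -0.86 in HET thymocytes (SE 0.18, adjusted p = 0.00109). Its KO call ended with lane as a covariate.

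Mrpl52 and Mrpl9 were higher at 24 hr in KO thymocytes, though both calls ended with lane as a covariate. Mrpl52 had 1483, 1619 and 1456 normalized counts at 24 hr in KO thymocytes, against 712, 733, 1002 and 858 at 0 hr, the largest rise of the 77 in any comparison (log2 change 0.89, SE 0.21, adjusted p = 0.00268). In HET thymocytes it had 1618, 2131 and 1403 at 24 hr, against 1403, 1230 and 876 at 0 hr, which did not pass the threshold. Mrpl9, the counterpart of bacterial L9, had 3300, 3673 and 3244 normalized counts at 24 hr in KO thymocytes, against 2354, 2333, 2399 and 2212 at 0 hr (log2 change 0.55, SE 0.13, adjusted p = 0.00203). The same gene had been lower at 3 hr, with 1751, 1682 and 1618 in KO thymocytes (log2 change -0.47, adjusted p = 0.0104). Mrpl16, the counterpart of bacterial L16, was higher in both genotypes, by 0.42 in KO (adjusted p = 0.0251) and 0.51 in HET thymocytes (adjusted p = 0.0112), and Mrpl18 in HET thymocytes by 0.47 (adjusted p = 0.0127). With lane as a covariate all of these calls of Mrpl16 and Mrpl18 ended. Both HET calls also ended in a fit of only the groups compared, and that of Mrpl16 in KO thymocytes with equal totals. The call of Mrpl16 in HET thymocytes ended without HET replicate 2 at 24 hr (0.41), that of Mrpl18 without HET replicate 1 at 24 hr (0.40), and that of Mrpl16 in KO thymocytes without KO replicate 1 (0.39) or 2 (0.38) at 0 hr or KO replicate 2 (0.37) or 3 (0.44) at 24 hr.

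The count of falling genes at 48 hr was above that at 3 hr in HET thymocytes (42 against 23) and below it in KO thymocytes (14 against 22). In KO thymocytes, 14 of the 77 were lower and 0 higher than at 0 hr, against 12.5% of all tested genes lower and 26.8% in either direction, with a median of -0.30, which was -0.010 with lane as a covariate and -0.36 to -0.15 with 1 library left out. In HET thymocytes, 42 of the 77 were lower and 0 higher, against 20.8% lower and 42.4% in either direction, with a median of -0.44 (-0.72 with lane as a covariate), and 74 of the 77 changes were negative. All 14 genes called lower in KO thymocytes were among the 42 of HET thymocytes, which is 14 of 14 and 14 of 42. Mice of both times were female. Of the HET libraries at 48 hr, replicate 3 shares lane 1 with those at 0 hr, and its library median was -0.42, against 0.37, 0.28 and 0.10 at 0 hr. The KO counts moved with single libraries: without KO replicate 1 at 48 hr 2 of the 77 were called, without KO replicate 3 at 48 hr 27, and with lane as a covariate 0. In HET thymocytes 19 were called without HET replicate 3 at 48 hr, 27 without HET replicate 1 at 0 hr and 53 without HET replicate 2 at 48 hr.

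Mrps33 had 1067, 1591 and 1621 normalized counts at 48 hr in KO thymocytes, against 2176, 2001, 2189 and 1902 at 0 hr (log2 change -0.56, SE 0.15, adjusted p = 0.0101). In HET thymocytes it had 1201, 1285 and 869 at 48 hr, against 2394, 2023 and 2002 at 0 hr (log2 change -0.95, SE 0.16, adjusted p = 8.64e-05), and neither genotype's times overlapped. Mrps25 fell at every time in both genotypes, and at 48 hr it had 542, 655 and 768 normalized counts in KO thymocytes, against 1078, 999, 1007 and 991 at 0 hr, and 783, 914 and 707 in HET thymocytes, against 1492, 1356 and 1324 at 0 hr. The groups were apart in both, at -0.65 in KO (SE 0.13, adjusted p = 0.00067) and -0.80 in HET thymocytes (SE 0.14, adjusted p = 6.85e-05). Mrps28 of the small subunit had 348, 571 and 794 normalized counts at 48 hr in KO thymocytes, against 914, 939, 1032 and 957 at 0 hr (log2 change -0.83, SE 0.23, adjusted p = 0.00966), and 603, 760 and 413 at 48 hr in HET thymocytes, against 1323, 1125 and 892 at 0 hr (log2 change -0.93, SE 0.24, adjusted p = 0.00378). Mrpl14 was lower by -0.81 in KO (SE 0.22, adjusted p = 0.00873) and -0.99 in HET thymocytes (SE 0.23, adjusted p = 0.0018). In KO thymocytes the calls of Mrps28, Mrpl14 and Mrps34 ended without KO replicate 1 at 48 hr (-0.51, -0.55 and -0.47), while that of Mrpl36, the counterpart of bacterial L36, stayed (log2 change -0.63, SE 0.14, adjusted p = 0.00238; -0.74 to -0.45). Mrpl48 of the large subunit was lower by -0.90 in HET thymocytes (SE 0.17, adjusted p = 0.000286).

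**Figure D3:**
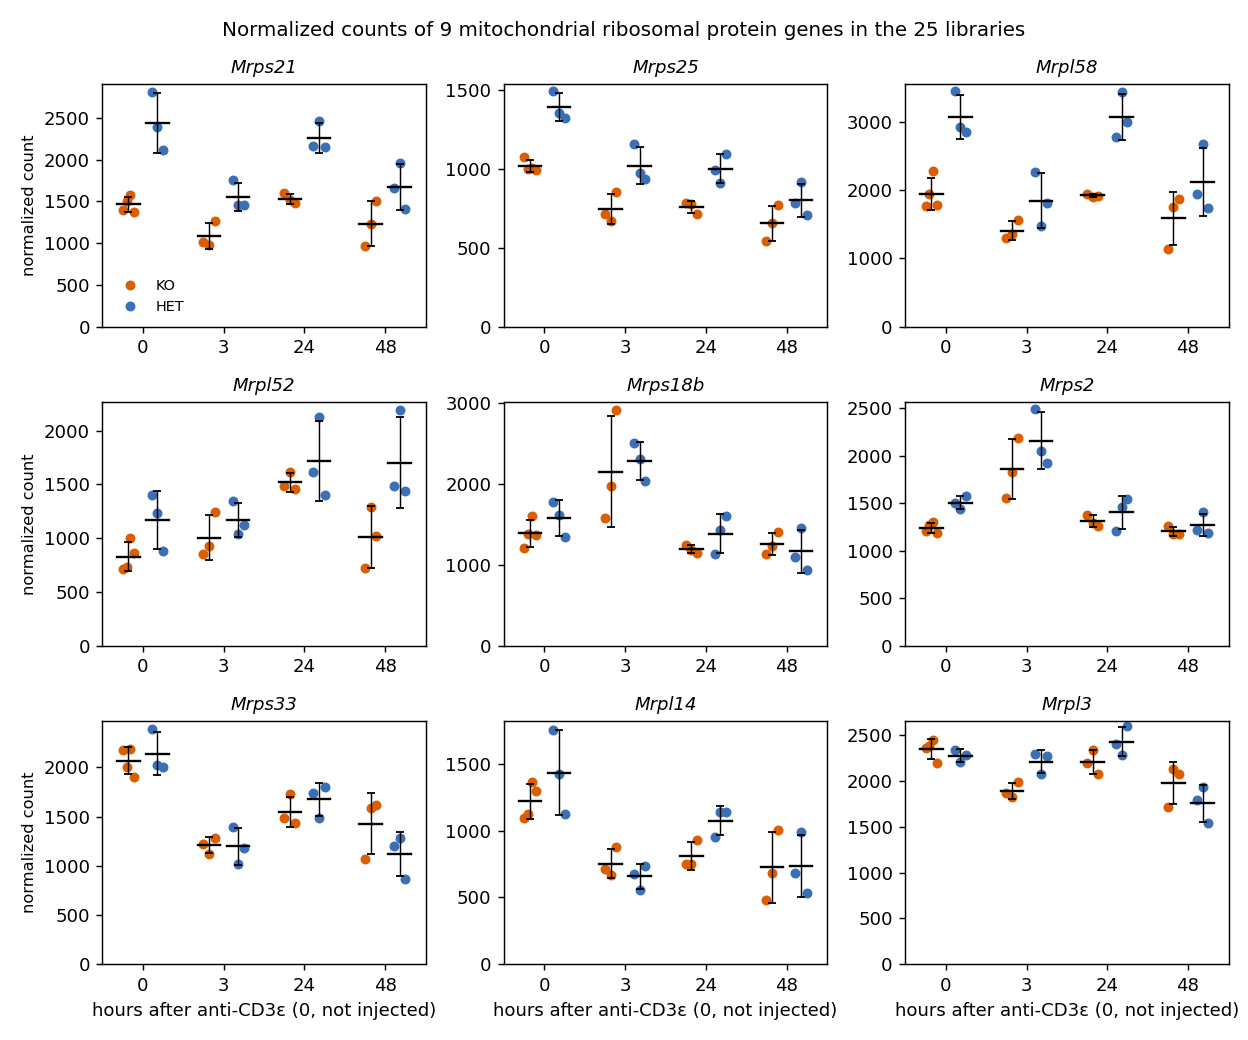
Normalized counts (y axis, from 0) of 9 of the genes in every library, by hours after anti-CD3ε, with KO (orange) left of HET (blue), group means as bars and SD as error bars. Mrps21 lies lower in KO at 0, 3 and 24 hr without overlap, Mrps18b and Mrps2 peak at 3 hr, Mrps33 and Mrpl14 are lower at 3 and 48 hr than at 0 hr, and Mrpl3 is lower at 48 hr in HET and at 3 hr in KO.

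The third question was whether the responses of the genotypes differ. In a genotype by time interaction, KO change minus HET change, 0 of the 77 passed the threshold at 3, 24 or 48 hr by limma, and edgeR and DESeq2 on the recovered reads also called 0. At an unadjusted p under 0.05 there were 1, 4 and 3 genes at 3, 24 and 48 hr. Over all tested genes the interaction called 0.0707%, 0.658% and 1.36%, so few genes of any kind passed. The smallest adjusted p at 48 hr was that of Mrps35 (0.49, adjusted p = 0.203) and at 24 hr that of Mrps22 (-0.73, adjusted p = 0.222). The smaller count of falling genes in KO than in HET thymocytes at 48 hr is therefore not shown to be a different response. The 2 comparisons with 0 hr start from different levels, and the median interaction at 48 hr was 0.13, with 0.66 with lane as a covariate and -0.0077 to 0.28 with 1 library left out.

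Divided by role, each class of subunit had a negative median in the comparisons that follow. At 0 hr the median KO minus HET change was -0.21 for large-subunit genes with a bacterial counterpart, -0.13 for those specific to mitochondria, -0.25 for small-subunit genes with a bacterial counterpart and -0.19 for those specific to mitochondria, with 3 of 29, 3 of 21, 2 of 16 and 2 of 10 called lower. At 48 hr in HET thymocytes the medians were -0.46, -0.42, -0.37 and -0.54 in the same order, with 17 of 29, 11 of 21, 9 of 16 and 5 of 10 called lower. No test of the difference between roles was made.

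Genes chosen for their place in the ribosome, whatever their values, gave a mixed picture. The stalk of the large subunit, where translation factors bind, includes Mrpl10, Mrpl11 and Mrpl12. Mrpl12 had 2280, 2337 and 2101 normalized counts in KO thymocytes at 24 hr, against 2556, 2998 and 3975 in HET thymocytes, all lower in KO but not past the threshold (log2 change -0.48, adjusted p = 0.172). Mrpl10 passed the threshold in none of the 10 comparisons. Mrpl11 fell in both genotypes at 3 hr (-0.65 in KO, adjusted p = 0.00556, and -0.82 in HET thymocytes, adjusted p = 0.000891) and at 48 hr (-0.50 in KO, adjusted p = 0.0231, and -0.83 in HET thymocytes, adjusted p = 0.000477). Mrpl3 and Mrpl2 encode proteins near the peptidyl transferase centre. Mrpl3 had small standard errors, with KO minus HET changes of 0.04, -0.22, -0.14 and 0.17 at 0, 3, 24 and 48 hr, none past the threshold. Against 0 hr it was lower at 3 hr in KO (-0.31, adjusted p = 0.0241) and at 48 hr in HET thymocytes (-0.38, adjusted p = 0.00523). Mrpl2 was lower at 48 hr by -0.57 in KO (adjusted p = 0.0139) and -0.77 in HET thymocytes (adjusted p = 0.00141). Mrps12, of the decoding centre, and Mrps24, at the mRNA entry, passed in none of the comparisons. Mrps22, Mrps34 and Mrps27 are specific to the mitochondrial small subunit. Mrps22 differed in sign from most of the set at 0 hr, with 1297, 1045, 983 and 1076 normalized counts in KO thymocytes, against 799, 852 and 856 in HET thymocytes, without overlap but not past the threshold (log2 change 0.39, adjusted p = 0.136). Mrps27 was lower in HET thymocytes at 3 hr (-0.47, adjusted p = 0.0298) and 48 hr (-0.63, adjusted p = 0.00384), and in KO thymocytes it was at -0.38 (adjusted p = 0.0729) and -0.25 (adjusted p = 0.239), which did not pass. Mrps30, a large-subunit protein in spite of its name, was lower at 48 hr by -0.39 in KO (adjusted p = 0.0199) and -0.44 in HET thymocytes (adjusted p = 0.00963). Mrps36 had 851, 926, 922 and 848 normalized counts in KO thymocytes at 0 hr, against 1396, 1104 and 1045 in HET thymocytes (log2 change -0.40, adjusted p = 0.045), a call that ended without any one of the libraries except HET replicate 3 (-0.45 to -0.28).

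The genes shared much of their variation over the libraries. Over the 25 libraries, Pearson's r between the log2 value of a gene and the mean of the other 76 was above 0.8 for 31 genes, above 0.5 for 63 and below 0 for 0. These correlations are descriptive, since the points share libraries, scaling and groups. The closest to the rest were Mrpl20 (0.95), Mrpl22 (0.94), Mrpl2 (0.94), Mrpl46 (0.92), Mrpl28 (0.90) and Mrpl11 (0.89). The least like the rest were Mrpl1 (0.06), Mrps2 (0.10), Mrpl23 (0.17), Mrpl50 (0.21), Mrps18b (0.25) and Mrpl52 (0.28). Within groups, after the group means were taken out, Mrps18b and Mrpl52 followed the rest at 0.75 and 0.77, whereas Mrpl1 (-0.10) and Mrpl50 (0.21) did not. Mrpl20, the closest, had 1764, 1754, 2179 and 1882 normalized counts in KO thymocytes at 0 hr, against 2642, 2165 and 1727 in HET thymocytes, the same scatter among HET libraries as in the library medians.

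Because the genes varied together, the bases upstream of their start sites were searched for words bound by factors known for genes of mitochondrial proteins. RefSeq promoters (GRCm38.p6, 250 bases before to 50 after the start) were given for 68 of the 77 genes and 27025 genes in all, and both strands were read. The NRF1 word was in 19.1% of the 68, against 5.19% of all promoters, the ETS word CCGGAAGT in 16.2%, against 4.31%, and the YY1 word in 7.35%, against 0.995%. The E-box CACGTG, read by MYC among others, was in 7.35%, against 8.09%, and the SP word GGGGCGGGG in 19.1%, against 12.9%. Some promoters hold more than 1 of these words, and a word is a match of letters and not a shown binding site. The 27025 genes were not limited to those expressed here, so these shares do not show a trait particular to the 68. The 250 bases upstream of 5 genes are printed below with the words in capitals: Mrps21, lower in KO at 3 times, and Mrpl45, tight and lower at 3 hr, with NRF1 words, Mrpl20, most like the rest, with an E-box, and Mrps18b and Mrps2, higher at 3 hr, with an SP word and with no word. They are given 5′ to 3′ from chr3:95871515-95871764 on the minus strand for Mrps21, chr11:97315466-97315715 on the plus strand for Mrpl45, chr4:155802628-155802877 on the plus strand for Mrpl20, chr17:35916441-35916690 on the minus strand for Mrps18b and chr2:28467816-28468065 on the plus strand for Mrps2. The first start site listed for each gene was used. For Mrpl45 and Mrps2 the printed bases lie inside the annotated span of the gene (97314923 to 97329920 and 28465951 to 28471177), before an internal start site.
Mrps21: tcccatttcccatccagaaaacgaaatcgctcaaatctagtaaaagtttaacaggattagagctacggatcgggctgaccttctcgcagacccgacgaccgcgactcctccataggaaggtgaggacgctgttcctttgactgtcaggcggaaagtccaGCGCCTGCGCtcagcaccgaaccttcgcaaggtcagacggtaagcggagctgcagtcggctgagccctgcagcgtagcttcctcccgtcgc
Mrpl45: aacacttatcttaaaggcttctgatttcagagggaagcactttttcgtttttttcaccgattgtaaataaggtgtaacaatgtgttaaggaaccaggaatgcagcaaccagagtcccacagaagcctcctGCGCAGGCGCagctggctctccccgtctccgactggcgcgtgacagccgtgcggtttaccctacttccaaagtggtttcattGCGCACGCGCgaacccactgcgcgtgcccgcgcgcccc
Mrpl20: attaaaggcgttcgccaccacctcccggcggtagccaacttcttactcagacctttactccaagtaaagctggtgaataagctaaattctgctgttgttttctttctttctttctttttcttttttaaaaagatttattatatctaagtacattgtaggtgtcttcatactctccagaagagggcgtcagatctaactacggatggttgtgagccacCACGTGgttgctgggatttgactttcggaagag
Mrps18b: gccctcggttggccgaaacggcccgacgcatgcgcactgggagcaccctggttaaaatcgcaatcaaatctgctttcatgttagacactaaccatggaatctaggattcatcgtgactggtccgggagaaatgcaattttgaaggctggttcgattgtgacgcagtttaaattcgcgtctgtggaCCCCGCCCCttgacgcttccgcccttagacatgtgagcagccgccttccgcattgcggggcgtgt
Mrps2: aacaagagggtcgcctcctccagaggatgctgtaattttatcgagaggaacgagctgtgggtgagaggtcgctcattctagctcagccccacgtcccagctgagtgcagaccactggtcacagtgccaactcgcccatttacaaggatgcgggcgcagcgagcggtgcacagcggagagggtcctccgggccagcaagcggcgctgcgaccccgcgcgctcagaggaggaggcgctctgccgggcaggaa

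Other genes of the same pathway were compared from fixed lists. Among 5 further subunits outside the Mrpl and Mrps names, none was called between KO and HET thymocytes at any time. Among 25 assembly factors, Malsu1, which keeps the subunits apart during assembly, was lower in KO thymocytes at 0 hr (-0.54, adjusted p = 0.00428), 3 hr (-0.56, adjusted p = 0.0112) and 24 hr (-0.51, adjusted p = 0.0171), whereas Ybey, an endonuclease-like protein of the same list, was higher at 24 hr (0.70, adjusted p = 0.00527). The others called were Mterf4, lower at 0 hr (-0.37, adjusted p = 0.029), and Mettl15 (0.51, adjusted p = 0.0399) and Tfb1m (0.51, adjusted p = 0.0445), higher at 48 hr. At 48 hr in HET thymocytes 12 of the 25 assembly factors were lower and 1 higher, and in KO thymocytes 6 were lower and 1 higher. Among 76 nuclear genes of the respiratory chain, 11 were lower in KO thymocytes at 0 hr (14.5%, against 14.3% of the 77). At 3 hr, 39 of these 76 were lower in KO and 52 in HET thymocytes, larger shares than the 22 and 23 of the 77. The 80 tested genes of the cytosolic ribosome were lower in KO thymocytes in 63 cases at 0 hr, 17 at 3 hr, 1 at 24 hr and 9 at 48 hr, so that at 24 hr fewer of them than of the 77 were called. The library medians of the 77 and of the 80 genes had a Pearson r of 0.81 over the 25 libraries and 0.89 within groups. No test compared the lists.

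**Figure D4:**
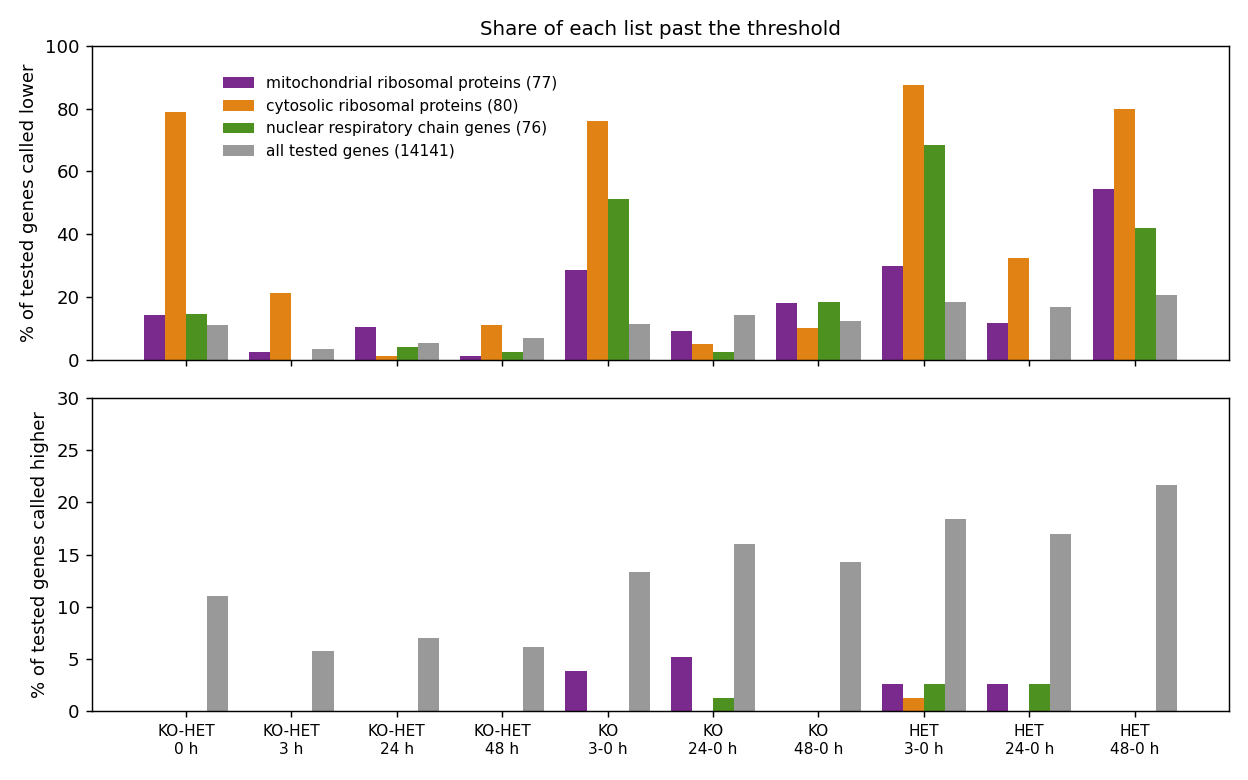
Percent of the tested genes of each list called lower (top) and higher (bottom, shorter axis) at an adjusted p of 0.05 in the 10 comparisons on the x axis; bars stand for the 77 mitochondrial ribosomal protein genes, 80 cytosolic ribosomal protein genes, 76 nuclear respiratory chain genes and all 14141 tested genes. Among the KO-HET comparisons the tallest bar is that of cytosolic ribosomal protein genes at 0 hr (78.8% lower in KO), and the 77 genes reach 54.5% at 48 hr in HET.

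The row of Mrpl23, the counterpart of bacterial L23 (chromosome 7, 142532467 to 142540747), cannot be read as the gene alone. Its mean was 107 normalized counts, whereas the row of its processed pseudogene Mrpl23-ps1 had a mean of 1730, and reads that match both can be assigned to either. At 0 hr Mrpl23 had 79, 134, 90 and 93 normalized counts in KO thymocytes, against 195, 267 and 142 in HET thymocytes (log2 change -1.0, SE 0.30, adjusted p = 0.0218). Mrpl23-ps1 had 1928, 2101, 2317 and 1969 in KO thymocytes, against 3761, 3116 and 2733 in HET thymocytes. Both rows were lower in all KO libraries. For the sum of both rows, an alternative added after the data were seen, the log2 change was -0.64 (adjusted p = 0.019). At 48 hr in HET thymocytes the gene's row was lower than at 0 hr by -1.50 (adjusted p = 0.000748) and the sum by -1.38. The call of the gene's row at 0 hr ended without HET replicate 1 (-1.0), HET replicate 2 (-0.77) or KO replicate 1 (-0.90).

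**Figure D5:**
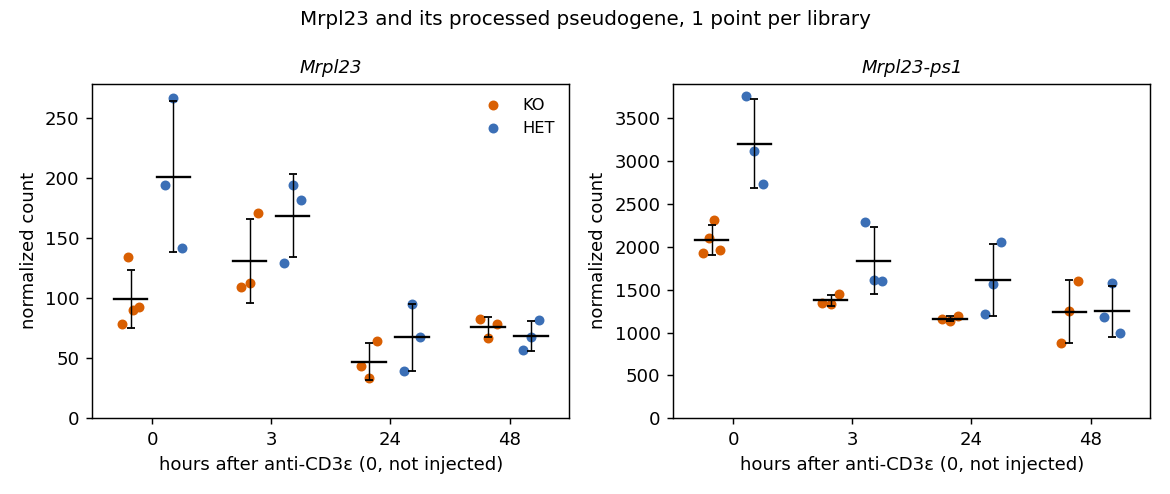
Normalized counts (y axes, from 0, of different range) of Mrpl23 and of its processed pseudogene Mrpl23-ps1 in every library, by hours after anti-CD3ε, with KO (orange) left of HET (blue), means as bars and SD as error bars. The pseudogene's row holds most of the reads, up to 3761 in 1 HET library at 0 hr, and both rows are lower in KO at 0 hr without overlap.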

How the data were processed

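RNA of 25 libraries of sorted thymocytes was sequenced with a stranded poly(A) protocol. The authors trimmed reads with Trimmomatic (0.36), aligned them with STAR (2.5.2a) to GRCm38, counted genes with RSEM (1.2.31) and normalized with DESeq2 (1.18.1, R 3.4.1). The deposited values are a signal, gene counts divided by a size factor per library, called normalized counts here. All values of the 25 libraries are whole multiples of a step (tolerance 0.001), from which reads were recovered, and a check of low values was met by 23.

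The 14141 genes whose mean reached 10 entered limma (3.58.1, R 4.3.3) on log2(value + 1), with 8 group means and a trended variance. In every comparison p was adjusted by Benjamini-Hochberg and called under 0.05. Fold changes are on that scale and understate those of low genes. Each library is a mouse of one experiment. Each of the 27 pairs of libraries of one group differed beyond sampling noise. The fit was tested on simulated data. Alternatives were other pseudocounts, filters and scalings, a replicate block, lane, edgeR (4.0.16) and DESeq2 (1.42.0) on recovered reads, fewer libraries, and pseudogene reads added to the parent gene, the last chosen after seeing the data. Genes named are, per comparison, up to 5 called genes per direction with the largest change and groups apart, all called in the rarer direction if 6 or fewer, 15 chosen by role, and the 6 most and least like the rest. Genes and lists were chosen with earlier results of these data known. Figures were drawn with matplotlib (3.10.9).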

Additional observations from a re-analysis of the deposited data

Results flagged for a closer look

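In KO thymocytes at 0 hr, Mrps18a had 1281 normalized counts in replicate 3, against 1083, 1091 and 1078 in the other libraries. The gap was 0.931 of the range of the group on the log2 scale. Mrpl35 had 1596 in replicate 1, against 1534, 1528 and 1534, a gap of 0.906 of the range on the log2 scale. Both exceed Dixon's critical value for 4 samples. Of 46 sets of 4 values examined, all from the same 4 KO mice at 0 hr, 2 did so. Chance gives about 1 in 20 for independent sets, and these sets share their mice.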

How the results depend on the processing

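KO minus HET at 0 hr called 11 genes, but 4 with a replicate block, 3 with lane as a covariate and 20 in a fit of only the groups compared, and 2 to 13 with 1 library left out. At 3 hr the 2 calls became 0 with no filter, equal totals, equal upper quartiles, the block, lane or only the groups compared, and 1 with quantile scaling (0 to 3 with 1 library left out). At 24 hr the 8 calls became 5 with no filter or only the groups compared and 4 with equal totals, the block or without the 3 libraries that stand apart (1 to 6). At 48 hr the 1 call became 4 with DESeq2 and 0 with only the groups compared (0 to 3). For HET at 3 hr 25 calls became 18 to 27 with 1 library left out. For HET at 24 hr 11 became 4 with lane or only the groups compared (6 to 12), and for HET at 48 hr 42 became 22 with only the groups compared (19 to 53). For KO at 3 hr 25 became 0 with lane (14 to 21). For KO at 24 hr 11 became 6 with no filter or the block, 1 with lane and 29 with only the groups compared (5 to 8). For KO at 48 hr 14 became 22 with equal totals, 32 with upper quartiles, 24 with quantiles, 0 with lane, 9 with only the groups compared and 28 without the 3 libraries (2 to 27). With lane the medians were -0.57 and 0.13 for KO minus HET at 0 and 48 hr, -0.53, -0.33 and -0.72 for HET at 3, 24 and 48 hr, -0.076, 0.0022 and -0.010 for KO at 3, 24 and 48 hr, and 0.42, 0.35 and 0.66 for the interactions. The design ties lane 2 to lane 1 only through HET replicates at 48 hr, and lane 1 to lanes 3 and 4 only through KO replicates at 48 hr. These lane-adjusted medians therefore rest on few libraries and are not read further. With 1 library left out the median ran from -0.36 to -0.15 for KO at 48 hr and from -0.0077 to 0.28 for the interaction at 48 hr, and the interaction at 24 hr called 0 to 1. With equal upper quartiles the median of all genes was -0.12 for HET at 3 and 48 hr, against -0.03 and -0.01 in the main fit.

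The replicate numbers do not pair the mice: in 0 of 10 comparisons did every pair of equal number deviate together (r from -0.197 to 0.205). Of 150 values of named genes 55 were called, and 41 of them lost the call in at least 1 alternative, while 0 reversed.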

Other observations

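Some regulators and partners of mitochondrial gene expression were called at 3 hr, in both directions. The genes named here come from longer lists, whose counts are not given. Of all tested genes 24.7% in KO and 37.0% in HET thymocytes were called in either direction. The lanes and the sex of the mice differ between 3 and 0 hr. With lane as a covariate 148 of all tested genes were higher and 52 lower in KO thymocytes. Pprc1, a coactivator of genes of mitochondrial proteins, was higher at 3 hr than at 0 hr by 1.28 in KO (adjusted p = 0.00059) and 1.36 in HET thymocytes (adjusted p = 0.000324) on the log2 scale. Ppargc1b, a related coactivator, was higher by 1.06 in KO (adjusted p = 0.00591) and 1.34 in HET thymocytes (adjusted p = 0.000925). Lrpprc, which stabilises mitochondrial mRNAs, was higher by 0.54 in KO (adjusted p = 0.0243) and 0.88 in HET thymocytes (adjusted p = 0.000849), whereas its binding partner Slirp was lower by -0.92 in KO (adjusted p = 0.00259) and -0.88 in HET thymocytes (adjusted p = 0.00332). All p are from limma.

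The list of 13 mRNAs encoded by the mitochondrial genome held a row named Gm10925 and none named mt-Atp6. Of these 13 rows, 5 were higher in KO than in HET thymocytes at 0 hr and 5 at 48 hr. Their medians were 0.85 and 1.11, while 0 were called at 3 or 24 hr. Of all 14141 tested genes 1552 were higher at 0 hr and 867 at 48 hr. At 0 hr mt-Nd4, a subunit of complex I, was higher by 1.12 (adjusted p = 0.016), and at 48 hr mt-Nd5 by 1.24 (adjusted p = 0.00713). Genotype and lane cannot be told apart at 0 hr.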
